A study of Mus musculus with 15 samples.

Results

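The data described here are the transcript levels of 35 genes of glycolysis and of the metabolic response to low oxygen, of 15701 genes measured in the series. The members were taken by gene name from a list that covers oxygen sensing, glucose uptake, the enzymes that turn glucose into pyruvate, the enzymes that decide what becomes of pyruvate, and further targets of the hypoxia response. RNA-Seq had been carried out on NMuMG cells, an epithelial cell line from normal mouse mammary gland, in 2 datasets. The knockdown dataset compared 2 samples of NMuMG cells with 2 samples of NMuMG cells carrying an shRNA against PCBP1, a nucleic acid-binding protein (hereafter "shPCBP1"). The labels give no treatment for the NMuMG samples, whereas the study describes its control cells as transduced with a scrambled shRNA and calls them shSCR. Every line of the knockout dataset carried the PCBP1 knockdown, controls included. Its 4 shPCBP1 lines, without a deleted gene, were the unaltered line and CT clones 1 to 3, which had received Cas9 but no guide RNA against a gene. They were set against FAM3C KO clones 1 to 3, which lacked the gene for the secreted protein FAM3C, and LIFR KO clones 1 to 3, which lacked the leukemia inhibitory factor receptor. One further line had both genes knocked out (double KO). The clones were isolated by dilution, each line was sequenced as 1 RNA sample, and a feature of one clone and an effect of its knockout were separated only as far as the clones of a group differed among themselves.

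Glycolysis splits glucose into pyruvate and yields ATP without oxygen. Glucose enters through transporters such as Slc2a1 (GLUT1), is trapped by hexokinases and is committed to the pathway by phosphofructokinase, and pyruvate is then either reduced to lactate by lactate dehydrogenase or oxidised in mitochondria through pyruvate dehydrogenase, which the pyruvate dehydrogenase kinases switch off. Most of these genes are known targets of hypoxia-inducible factor (HIF), whose alpha subunits Hif1a and Epas1 are marked for degradation by the prolyl hydroxylases Egln1 and Egln3 as long as oxygen is present. Much of that control acts on the HIF protein, which transcript levels do not show.

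All 35 names were found among the 15023 genes of the knockdown dataset, and 31 among the 13893 genes of the knockout dataset. There, the gene listed in the knockdown dataset as Ero1l had the same identifier under the name Ero1a, a second row also named Aldoa had an identifier of its own, and Slc2a3, Ldhb and Car9 were not analysed. After genes with a mean under 0.5 CPM (a read count divided by the library size) were set aside, 32 members were tested among 11384 genes in the knockdown dataset and 33 member rows among 12621 genes in the knockout dataset.

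The labels were first checked. Pcbp1 was at 287 and 312 CPM in NMuMG cells and at 14.1 and 14.2 CPM in shPCBP1 cells. Fam3c averaged 34.4 CPM in FAM3C KO and 53.7 CPM in shPCBP1 lines. Lifr averaged 26.3 CPM in LIFR KO and 32.3 CPM in shPCBP1 lines (adjusted p = 0.384 from limma) and was at 4.36 CPM in the double KO, the LIFR KO clones overlapping the shPCBP1 lines. In the FAM3C KO clones Lifr averaged 14.4 CPM, lower than in the shPCBP1 lines (-1.18 on the log2 scale, adjusted p = 0.175 from limma) and, on average, than in the LIFR KO clones (-0.81, adjusted p = 0.137), which bears on the comparison of FAM3C KO with LIFR KO. The guide pairs cut a short piece out of the coding sequence, so the summed reads of a gene do not check these deletions. The epithelial markers Cdh1, Krt8, Krt18, Krt19 and Dsp were present in every sample. Krt5, Krt14 and Cldn4 were near 0 in the knockdown dataset and not listed in the knockout dataset. The epithelial markers Epcam, Cldn3 and Esrp1 were listed in neither dataset. Summed markers of leukocyte, endothelial, fat and macrophage cells did not exceed 1.79 CPM in the knockdown dataset. In the knockout dataset the leukocyte and fat markers were not listed. The endothelial and macrophage markers there summed to at most 11.2 CPM, mostly from the macrophage marker Cd68 (4.29 to 10.8 CPM). From the lowest values of the libraries, 16031859 to 46901675 reads lay behind those of the knockout dataset. The depth of the knockdown dataset is unknown. LIFR KO clones 2 and 3 and the double KO stood apart from the other lines of the knockout dataset, with 7.16 to 8.58% of the CPM in mitochondrial genes against 3.14 to 4.06%. Pcbp1 was also lower in them, at 22.5, 19.9 and 20.6 CPM against 32.9 to 39.5 CPM in the other lines. Results that rest on these libraries are given with and without them.

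The HIF heterodimer is known to bind the core letters ACGTG or GCGTG near its target genes. The promoter windows of 6 members are shown because these genes were among those with the largest changes in the knockdown (Pfkp, Aldoc, Bnip3 and Pdk1), differed between the knockouts (Hk2) or held the most matches of the members (Ldha). Each runs from 250 bases before to 50 bases after the RefSeq transcription start (GRCm38.p6), is written 5′ to 3′ along the gene, and has in capitals every ACGTG or GCGTG on either strand, so that a match on the other strand appears as its reverse complement. The palindrome CACGTG holds ACGTG on both strands and was counted on each.
Pfkp (chr13:6648722-6649021, minus strand): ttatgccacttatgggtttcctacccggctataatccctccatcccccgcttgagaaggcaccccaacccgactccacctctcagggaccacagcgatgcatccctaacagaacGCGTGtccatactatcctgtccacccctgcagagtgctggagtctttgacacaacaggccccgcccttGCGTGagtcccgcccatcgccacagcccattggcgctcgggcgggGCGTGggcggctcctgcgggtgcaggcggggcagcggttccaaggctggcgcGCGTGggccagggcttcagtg
Hk2 (chr6:82774405-82774704, minus strand): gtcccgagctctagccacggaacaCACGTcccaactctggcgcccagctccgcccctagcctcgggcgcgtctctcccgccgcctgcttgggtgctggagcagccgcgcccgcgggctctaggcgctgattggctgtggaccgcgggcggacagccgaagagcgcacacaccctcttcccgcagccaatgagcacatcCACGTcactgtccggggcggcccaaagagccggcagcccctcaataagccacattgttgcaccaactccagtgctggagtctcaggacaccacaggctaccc
Aldoc (chr11:78322823-78323122, plus strand): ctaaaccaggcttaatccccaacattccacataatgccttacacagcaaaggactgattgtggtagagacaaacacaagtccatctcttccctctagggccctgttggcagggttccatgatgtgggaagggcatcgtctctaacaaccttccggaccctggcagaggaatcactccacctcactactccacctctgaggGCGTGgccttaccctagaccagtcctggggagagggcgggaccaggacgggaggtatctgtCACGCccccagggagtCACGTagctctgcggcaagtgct
Ldha (chr7:46845554-46845853, plus strand): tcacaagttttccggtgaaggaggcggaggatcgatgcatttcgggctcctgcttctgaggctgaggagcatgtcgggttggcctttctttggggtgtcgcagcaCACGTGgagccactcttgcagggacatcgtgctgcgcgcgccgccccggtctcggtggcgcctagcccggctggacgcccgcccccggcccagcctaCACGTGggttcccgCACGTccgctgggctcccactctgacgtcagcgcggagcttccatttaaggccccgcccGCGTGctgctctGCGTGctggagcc
Pdk1 (chr2:71872974-71873273, plus strand): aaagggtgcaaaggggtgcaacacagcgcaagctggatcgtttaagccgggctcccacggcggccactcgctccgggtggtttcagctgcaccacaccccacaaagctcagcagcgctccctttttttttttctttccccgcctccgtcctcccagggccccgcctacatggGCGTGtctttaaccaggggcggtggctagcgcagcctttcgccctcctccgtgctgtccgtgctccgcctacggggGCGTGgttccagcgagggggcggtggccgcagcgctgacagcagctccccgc
Bnip3 (chr7:138909457-138909756, minus strand): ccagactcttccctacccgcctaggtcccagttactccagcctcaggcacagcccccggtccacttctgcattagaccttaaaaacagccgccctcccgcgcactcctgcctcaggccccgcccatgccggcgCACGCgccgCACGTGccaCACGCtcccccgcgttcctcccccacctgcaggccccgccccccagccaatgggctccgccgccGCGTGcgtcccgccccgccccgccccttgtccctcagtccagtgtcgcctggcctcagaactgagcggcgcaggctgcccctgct
The Pfkp window held 4 GCGTG and no ACGTG, the Hk2 window 2 ACGTG, the Aldoc window 1 ACGTG and 2 GCGTG, and the Pdk1 window 2 GCGTG. The Bnip3 window held 2 ACGTG and 3 GCGTG, and the Ldha window 5 ACGTG and 2 GCGTG. A window was given for 31 of the 35 members (not for Epas1, Slc2a3, Bnip3l and Ndrg1), and 24 of these 31 (77.4%) held at least 1 of the motifs, against 43.8% of all 32851 RefSeq windows of that length. ACGTG was in 58.1% of the members' windows and 19.6% of all windows, and GCGTG in 51.6% and 32.4%. The members' windows were also richer in G and C, with a median of 64.7% against 52.7%. Of the members with a window that rose in the knockdown 7 of 10 held a motif, and of those that fell 14 of 16. These are matches of letters in the sequence, not bound sites.

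The first comparison asked how the pathway stood in NMuMG cells after knockdown of PCBP1. Pfkp, the platelet-type enzyme of the committing phosphofructokinase step, was under 1 CPM in NMuMG and many times higher in shPCBP1 cells, while the glucose transporter Slc2a1, most enzymes from aldolase onward and the mitochondrial gatekeeper Pdk1 were lower. Of the 32 members tested, 29 passed an adjusted p of 0.07 (limma with Benjamini-Hochberg adjustment over all genes), 10 higher and 19 lower in shPCBP1. The background was high, since 80.1% of all tested genes passed, 42.1% higher and 38.0% lower. With a fold change of at least 1.5 required as well, 16 of the 32 members passed, 5 higher and 11 lower, against 31.1% of all genes, 16.0% higher and 15.1% lower. The members higher by either count include Eno2, which passed the filter on the mean only through its shPCBP1 values and could not have been called lower. They also include Pfkp, which lay near that filter in NMuMG and could hardly have been called lower. The median log2 fold change was -0.44 over the members and 0.02 over all genes, and the median absolute log2 fold change was 0.68 and 0.36. In 30 of the 32 members the groups did not overlap, against 89.0% of all genes. Only 2 samples stood on each side, so an exact permutation test could not go below p = 0.333, and the adjusted p-values measure the spread between these samples, which may be technical. Values in parentheses in the text are log2 fold changes on the log2(CPM + 0.1) scale unless said otherwise. In bulk RNA, fewer cells of a type and less RNA per cell cannot be told apart.

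**Figure D1:**
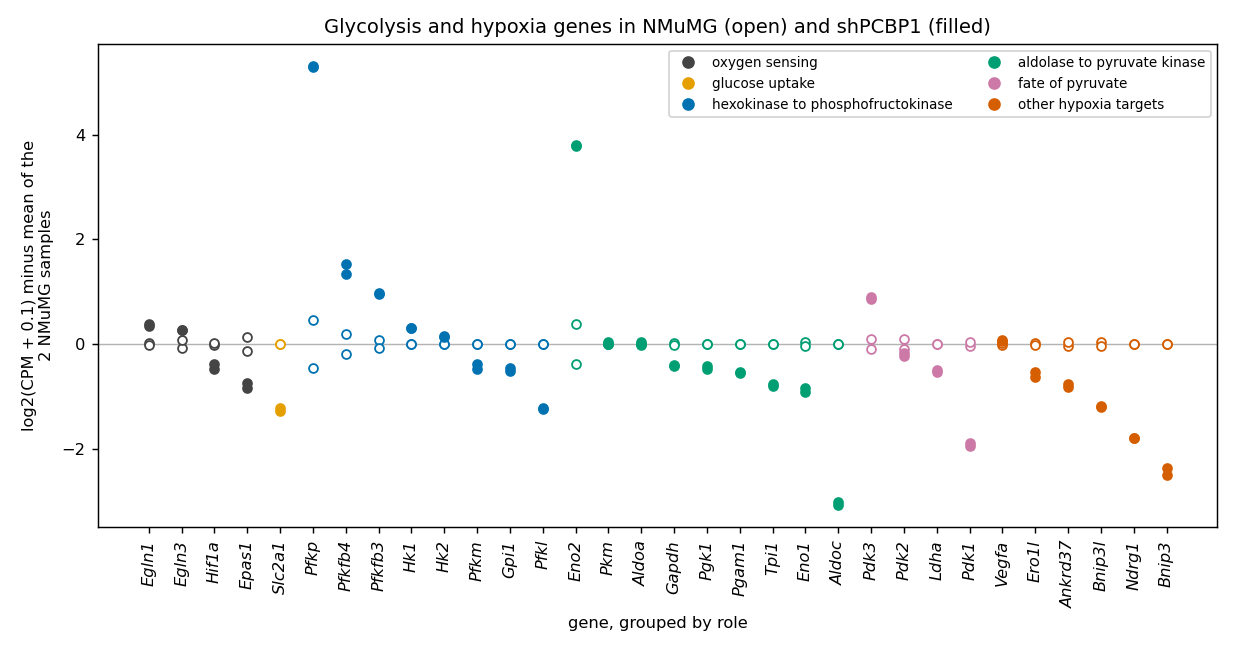
The 32 tested members in the knockdown dataset, grouped by role on the horizontal axis, with log2(CPM + 0.1) minus the mean of the NMuMG samples on the vertical axis. Open points are the 2 NMuMG samples and filled points the 2 shPCBP1 samples, and the filled points lie farthest above 0 for Pfkp and Eno2 and farthest below for Aldoc and Bnip3.

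Of the genes that sense oxygen, the prolyl hydroxylases rose slightly and the HIF alpha subunits fell. Hif1a was at 45.9 and 47.4 CPM in NMuMG and 35.7 and 33.4 CPM in shPCBP1, a log2 fold change of -0.43 (SE 0.039, adjusted p = 1.44e-06 from limma). Epas1, which encodes HIF-2 alpha, went from 6.66 and 8.07 CPM to 4.07 and 4.34 CPM with a log2 fold change of -0.79. Egln1 was at 38.4 and 37 CPM in NMuMG and 47.8 and 49.4 CPM in shPCBP1 and Egln3 at 31.9 and 35.4 CPM in NMuMG and 40.4 and 40.2 CPM in shPCBP1, with log2 fold changes of 0.36 and 0.26. In each of the 4 genes the shPCBP1 samples lay outside the range of the NMuMG samples. Slc2a1, the glucose transporter of most cells, stood at 67.2 and 67.8 CPM in NMuMG and at 27.9 and 28.8 CPM in shPCBP1 (-1.25, SE 0.0323, adjusted p = 5.84e-11 from limma), while Slc2a3, the neuronal-type transporter, was listed at 0.0001 and 0.0378 CPM in NMuMG and 0.0539 and 0.0555 CPM in shPCBP1 and was not tested.

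Between hexokinase and phosphofructokinase, 5 of 8 members rose and 3 fell. Pfkp was at 0.353 and 0.746 CPM in the NMuMG samples and at 24.5 and 24.2 CPM in the shPCBP1 samples, a log2 fold change of 5.30 (SE 0.22, adjusted p = 2.23e-09 from limma). The liver-type enzyme Pfkl went the other way, from 56 and 55.4 CPM to 23.7 and 23.5 CPM (-1.24, SE 0.0332, adjusted p = 7.57e-11 from limma), and the muscle-type Pfkm from 23 and 22.8 CPM to 16.5 and 17.4 CPM (-0.43). The Pfkp fold rests on the low NMuMG values, and with a pseudocount of 1 CPM in place of 0.1 its log2 fold change was 4.04. Those values lay near the filter at a mean of 0.5 CPM, so a marked fall would have taken Pfkp out of the test. Both genes for bifunctional enzymes that set fructose 2,6-bisphosphate, the activator of phosphofructokinase, rose: Pfkfb4 from 2.64 and 3.43 CPM to 8.83 and 7.71 CPM (1.43, SE 0.126) and Pfkfb3 from 8.09 and 7.35 CPM to 15.3 and 15.1 CPM (0.97, SE 0.0672). The hexokinases rose little. Hk1 was at 58.2 and 58.8 CPM in NMuMG and 72.6 and 72.2 CPM in shPCBP1, and Hk2 at 52.3 and 52.8 CPM in NMuMG and 58.5 and 57.4 CPM in shPCBP1, with log2 fold changes of 0.31 for Hk1 and 0.14 for Hk2. Gpi1, the isomerase that follows hexokinase, went from 196 and 193 CPM to 141 and 136 CPM and fell by 0.49 on the log2 scale.

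From aldolase to pyruvate kinase, 6 of 9 members tested fell, 1 rose, and 2 did not pass. The 2 were Aldoa at 345 and 344 CPM in NMuMG and 355 and 339 CPM in shPCBP1 (0.01, adjusted p = 0.697 from limma) and Pkm, pyruvate kinase M, at 1348 and 1353 CPM in NMuMG and 1384 and 1343 CPM in shPCBP1 (0.01, adjusted p = 0.578 from limma). In both, the samples of the groups overlapped. Aldoc, the brain-type aldolase, fell from 9.81 and 9.9 CPM to 1.08 and 1.13 CPM (-3.05, SE 0.102, adjusted p = 4.18e-10 from limma). Eno1, the main enolase, was at 336 and 320.2 CPM in NMuMG and 183 and 174 CPM in shPCBP1 (-0.88), and triosephosphate isomerase, Tpi1, at 491 and 489 CPM in NMuMG and 290.1 and 280.1 CPM in shPCBP1 (-0.78). Pgam1, at 633 and 634 CPM in NMuMG and 432 and 437 CPM in shPCBP1, Pgk1, at 170.4 and 169 CPM in NMuMG and 127 and 123 CPM in shPCBP1, and Gapdh, at 236 and 232 CPM in NMuMG and 177 and 174 CPM in shPCBP1, fell by 0.54, 0.45 and 0.41 on the log2 scale. Eno2, the neuronal-type enolase, was at 0.0355 and 0.132 CPM in NMuMG and 2.35 and 2.38 CPM in shPCBP1. Its log2 fold change was 3.80 (SE 0.238) and, with a pseudocount of 1 CPM, 1.64. Eno2 reached the mean of 0.5 CPM only through the shPCBP1 samples, so its test could only call it higher and adds no support.

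At the fate of pyruvate, Ldha, the lactate dehydrogenase subunit that favours lactate, was at 939.9 and 935 CPM in NMuMG and 662 and 649 CPM in shPCBP1 (-0.52, SE 0.0203, adjusted p = 1.44e-09 from limma). Its partner Ldhb stood at the floor value of the table in both NMuMG samples and at 0.126 and 0.129 CPM in shPCBP1, and was not tested. Pdk1, which switches off pyruvate dehydrogenase, was at 76.1 and 80.3 CPM in NMuMG and 20.2 and 20.9 CPM in shPCBP1 (-1.92, SE 0.0372, adjusted p = 7.53e-12 from limma). Pdk3 moved in the opposite direction, from 2.12 and 2.41 CPM to 4.3 and 4.21 CPM (0.88, SE 0.111), and Pdk2 stood at 2.83 and 2.47 CPM in NMuMG and 2.35 and 2.24 CPM in shPCBP1 (-0.20, adjusted p = 0.153 from limma). The shPCBP1 values of Pdk1 were far below the NMuMG values, with no overlap, and those of Pdk2 lay just below them.

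Of the 6 other hypoxia targets tested, 5 fell. Bnip3 and Bnip3l, which mark mitochondria for removal by autophagy, were at 17.7 and 17.8 CPM and 43.9 and 41.9 CPM in NMuMG, and at 3.35 and 3.07 CPM and 18.5 and 18.8 CPM in shPCBP1. Their log2 fold changes were -2.43 (SE 0.0769) and -1.20 (SE 0.0399). Ndrg1, a stress-responsive gene named for its downregulation by N-myc, went from 143 and 142 CPM to 41.1 and 41.1 CPM (-1.79, SE 0.0257, adjusted p = 1.21e-12 from limma), the smallest adjusted p of the members. Ankrd37, at 1.91 and 2 CPM in NMuMG and 1.06 and 1.11 CPM in shPCBP1, and Ero1l, an oxidase of the endoplasmic reticulum, at 23.3 and 22.8 CPM in NMuMG and 14.8 and 15.9 CPM in shPCBP1, fell by 0.80 and 0.58 on the log2 scale. Vegfa, the angiogenic growth factor, was at 84.2 and 86.5 CPM in NMuMG and 89 and 89.9 CPM in shPCBP1, a change of 0.07 on the log2 scale (adjusted p = 0.0326 from limma) that missed the threshold in 6 of 12 alternative settings. Car9, the carbonic anhydrase often used as a hypoxia marker, was listed at 0.0178 and 0.019 CPM in NMuMG and 0.108 and 0.074 CPM in shPCBP1 and was not tested. The summed CPM of the members was 5474 to 5491 in NMuMG and 4228 to 4325 in shPCBP1. Other features moved between the same samples: summed mesenchymal markers went from 535 to 557 CPM to 1315 to 1350 CPM, summed epithelial markers from 3535 to 3595 CPM to 3061 to 3121 CPM, and the mitochondrial share from 6.63 to 6.84% to 4.75 to 4.81%. Their part in the members' levels was not tested.

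Because a gene's length sets how many reads it yields, the members of a family were compared as CPM per kb of the longest transcript. Of the summed phosphofructokinase level in NMuMG, Pfkl made up 64.9%, Pfkm 34.5% and Pfkp 0.577% (means of 2 samples). In shPCBP1 the 3 shares were 35%, 32.6% and 32.5%, nearly equal. In the separately normalized knockout dataset, the shPCBP1 lines held Pfkp shares of 29.3 to 34.9%. Among the 3 pyruvate dehydrogenase kinases listed, Pdk1 made up 87% in NMuMG and 56.6% in shPCBP1, and Pdk3 6.18% and 28.8%. The order of these kinases was reversed in the shPCBP1 lines of the knockout dataset, with means of 30.7% for Pdk1 and 52.9% for Pdk3. The share of Hk2 among both hexokinases was 41.1% in NMuMG and 38.3% in shPCBP1, against a mean of 29.5% in the shPCBP1 lines of the knockout dataset. Eno1 made up between 99% and 99.1% of the summed level of Eno1 and Eno2 in shPCBP1, and Aldoa 98.4% of the aldolase level in NMuMG and 99.8% in shPCBP1. These shares do not depend on how a library was scaled. The Pdk1, Pdk3 and Hk2 shares of shPCBP1 nevertheless differed between the datasets, and the cause was not tested.

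**Figure D2:**
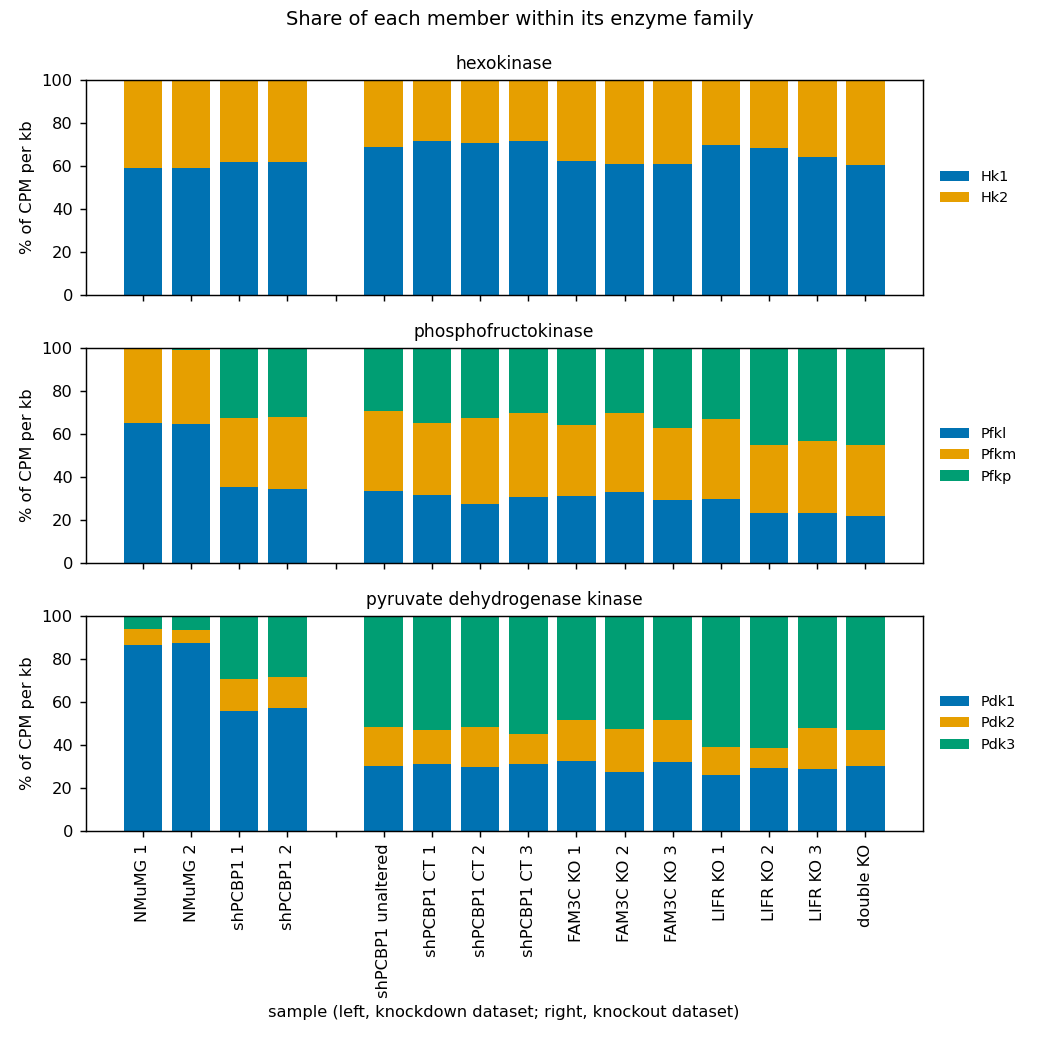
Share of each member in the summed CPM per kb of the members of its enzyme family drawn, in percent on the vertical axis, for every sample (knockdown dataset on the left, knockout dataset on the right). Pfkp is all but absent from the 2 NMuMG bars and takes about as much as Pfkl and Pfkm in the shPCBP1 bars. The Hk2 share is higher in the FAM3C KO clones than in the shPCBP1 lines of the same dataset.

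By the same scale the members spanned a wide range of levels. In NMuMG Pkm was highest at a mean of 555 CPM per kb (554 to 556), followed by Ldha at 517 CPM per kb (515 to 518), Pgam1 at 357 CPM per kb (both samples), Tpi1 at 305 CPM per kb (304 to 306) and Aldoa at 222 CPM per kb (222 to 223). The ranges of these 5 did not overlap. Eno1 has a near-identical copy, Eno1b, and both together stood at 817 CPM per kb (811 to 823) of the Eno1 transcript in NMuMG, above Pkm. Both stood at 459 CPM per kb (457 to 461) in the shPCBP1 samples of the same dataset. In the shPCBP1 lines of the knockout dataset they stood at 402 CPM per kb (348 to 497). The order given here counts Eno1 without that copy. The datasets were normalized separately, so a difference in level or order between them does not measure the knockdown. In the shPCBP1 lines of the knockout dataset the order began with Pkm at 820.2 CPM per kb (769 to 929.6), Aldoa at 549 CPM per kb (519 to 585) and Ldha at 326 CPM per kb (297 to 378). Tpi1, Gapdh and Pgam1 came next with means of 199, 171 and 164 CPM per kb, and the ranges of Gapdh and Pgam1 overlapped. Aldoc, at a mean of 0.909 CPM per kb, was the lowest member there.

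Further genes of the same pathways, which are not members, were counted by the same threshold. In the knockdown, 4 of 6 regulators of HIF tested fell and none rose, 7 of 18 other hypoxia-responsive genes rose and 10 fell, 3 of 12 other glycolysis genes rose and 8 fell, 5 of 9 genes for pyruvate entry into mitochondria rose and 4 fell, and 5 of 7 genes of the pentose phosphate branch rose with none lower. These counts stand against the 80.1% of all genes that passed, 42.1% higher and 38.0% lower. Among the largest changes were Pklr, the liver-type pyruvate kinase, at 54 and 52.5 CPM in NMuMG and 6.52 and 6.89 CPM in shPCBP1 (-2.97), and the histone demethylase Kdm3a at 36.4 and 37.7 CPM in NMuMG and 13.5 and 14 CPM in shPCBP1 (-1.42). Stc2, a secreted glycoprotein, went from 6.99 and 6.51 CPM to 2.1 and 2 CPM (-1.67). Haem oxygenase Hmox1, at 10.3 and 9.5 CPM in NMuMG and 42.3 and 44.7 CPM in shPCBP1 (2.12), went up. Ak4, a mitochondrial adenylate kinase, was listed at the lowest value in NMuMG and at 11.7 and 11.7 CPM in shPCBP1. It was tested only through its shPCBP1 values, so it could only be called higher.

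The second comparison asked how the members stood without FAM3C in cells with PCBP1 knocked down. Eno1, Hk2 and Vegfa were higher in all 3 FAM3C KO clones than in all 4 shPCBP1 lines, and the other abundant enzymes stayed close to the shPCBP1 level. None of these differences passed the threshold in the fit of the 3 groups. No member passed the adjusted p of 0.07 in limma, where 0.309% of the 12621 genes passed. At an unadjusted p under 0.05 there were 3 of 33 member rows (Eno1, Hk2 and Vegfa, all higher in FAM3C KO), against 10.2% of all genes. In 8 of the 33 rows all 3 clones lay outside the range of the shPCBP1 lines, 5 higher and 3 lower, against 22.7% of all genes, 10.1% higher and 12.5% lower. The medians of the log2 fold change were 0.01 over the members and -0.01 over all genes. These shares of the members lay near the background. Summed mesenchymal markers were at 1774 to 2024 CPM in the shPCBP1 lines and 2077 to 2226 CPM in the FAM3C KO clones, and summed epithelial markers at 2890 to 3781 CPM and 2309 to 3417 CPM. Their part in the values below was not tested.

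Eno1 was at 302, 220.1, 222 and 253 CPM in the unaltered shPCBP1 line and CT clones 1 to 3, and at 471, 509 and 459 CPM in FAM3C KO clones 1 to 3. Each clone lay above all shPCBP1 lines (two-sided exact permutation p = 0.0286, which is the lowest value 4 lines against 3 can give). The log2 fold change was 0.95 (SE 0.23) with an adjusted p of 0.15 from limma in the fit of the 3 groups. Hk2, a hexokinase induced in many tumours, was at 104, 92.1, 104 and 102 CPM in the shPCBP1 lines and at 127, 146 and 133 CPM in the FAM3C KO clones. It did not overlap either (exact permutation test, two-sided, p = 0.0286), and its log2 fold change was 0.43 (SE 0.131, adjusted p = 0.251 from limma). Hk1 lay lower, at 177, 178, 192 and 199.6 CPM and 163, 175 and 161 CPM (-0.17, adjusted p = 0.849 from limma). The share of Hk2 in the hexokinase level per kb was 28.3 to 31.4% in the shPCBP1 lines and 37.8 to 39.3% in the FAM3C KO clones. It was 30.6 to 36.0% in the LIFR KO clones. In the shPCBP1 samples of the knockdown dataset, without a knockout, it was 38.2 and 38.5%, within the range of the FAM3C KO clones. Vegfa was at 157, 123, 164 and 178 CPM in the shPCBP1 lines and 194, 200.5 and 235 CPM in the clones, which lay above every shPCBP1 line (0.44, SE 0.165, adjusted p = 0.376 from limma). Its two-sided exact permutation p was 0.0571.

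Whether these members passed depended on the fit. With the FAM3C KO and shPCBP1 samples fitted alone, where 1048 genes (8.29%) in place of 39 passed, Eno1 (adjusted p = 0.00421 from limma), Hk2 (adjusted p = 0.0142) and Bnip3l (adjusted p = 0.0508) passed the threshold. After a correction for the GC content of the genes, with which 2.13% of all genes passed, Hk2 passed (0.47, adjusted p = 0.0403 from limma), while Eno1 (0.99, adjusted p = 0.0797) and Vegfa (0.48, adjusted p = 0.091) did not.

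Other members without overlap were Bnip3l at 22, 22.4, 19.6 and 23.7 CPM in the shPCBP1 lines and 26.8, 28.7 and 27.1 CPM in the FAM3C KO clones (0.33, adjusted p = 0.642 from limma) and Ero1a at 19, 21.6, 25.6 and 24.6 CPM and 31.8, 25.8 and 34.4 CPM (0.43, adjusted p = 0.55), both higher in the clones. Aldoc, at 2.56, 2.71, 2.18 and 2.68 CPM and 2.08, 1.04 and 2.04 CPM (-0.59, adjusted p = 0.638 from limma), and Pkm, at 1951, 1871, 1897 and 2261 CPM and 1732, 1813 and 1725 CPM (-0.18, adjusted p = 0.884), were lower. The remaining 25 rows overlapped, with the abundant enzymes close to their shPCBP1 levels: Aldoa was at 857, 896 and 790.4 CPM, Tpi1 at 319, 344 and 303 CPM and Ldha at 574, 621 and 548 CPM in the clones, with log2 fold changes of -0.01, 0.01 and -0.02. Pfkp, Pfkfb4 and Pdk3, which had risen in the knockdown, had log2 fold changes of 0.02, 0.10 and -0.25. None of the further pathway genes passed in this comparison.

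Eno1 has a near-identical copy in the mouse genome, Eno1b, and how reads that fit both were divided is not given in the sources used here, so the level of Eno1 is uncertain. Eno1b held the larger value in every sample, with an Eno1b to Eno1 ratio in CPM of 2.08 to 2.33 across the knockout dataset and of 3.96 to 4.36 across the knockdown dataset. In FAM3C KO, Eno1b averaged 1057 CPM against 566 CPM in the shPCBP1 lines.

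**Figure D3:**
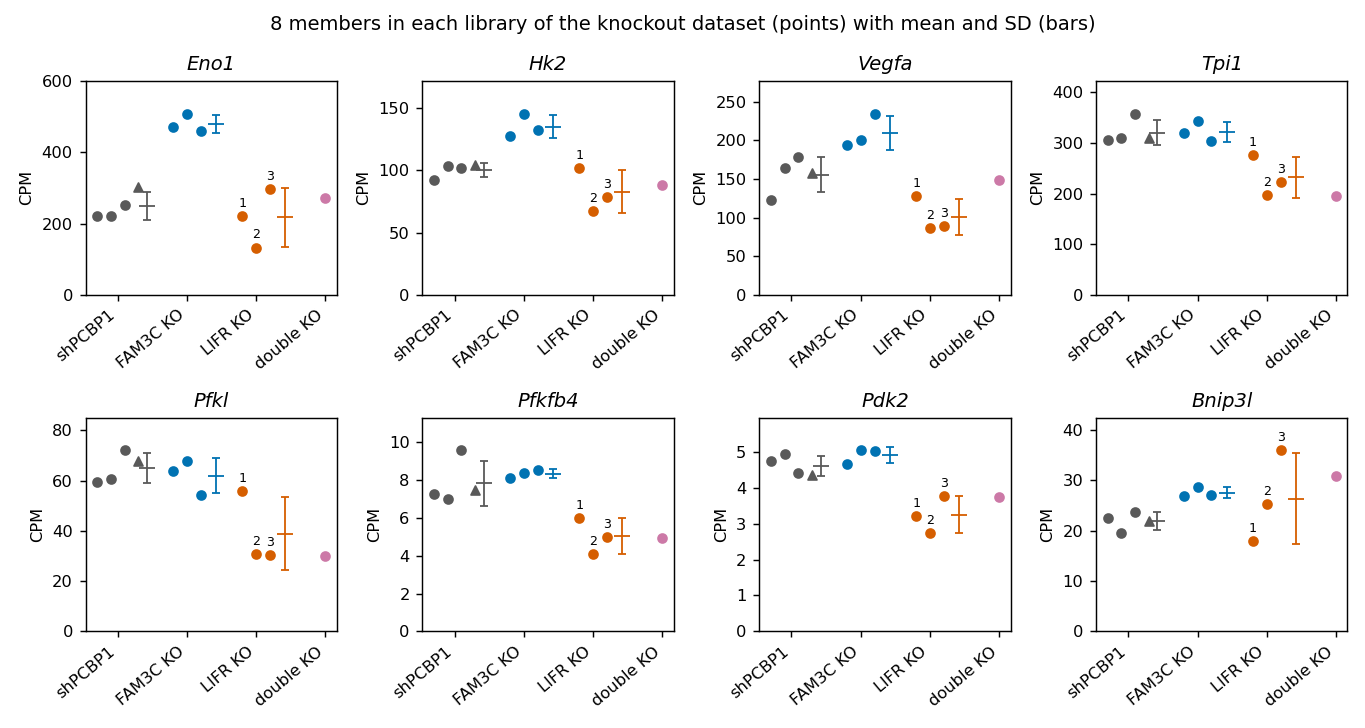
CPM (vertical axes, from 0) of 8 members in each library of the knockout dataset, with the mean and SD of each group as bars beside the points. The triangle is the unaltered shPCBP1 line, numbers mark LIFR KO clones 1 to 3, and the FAM3C KO clones lie above every shPCBP1 line for Eno1, Hk2, Vegfa and Bnip3l, while LIFR KO clones 2 and 3 lie low for Tpi1 and Pfkl.

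The third comparison asked the same of the loss of LIFR. In all, 4 members passed the adjusted p of 0.07, all lower in LIFR KO: Pfkl, Pfkfb4, Tpi1 and Vegfa. They were 4 of 33 rows, where 6.47% of all genes passed (5.55% lower). At an unadjusted p under 0.05 there were 18 rows, against 35.7% of all genes. Clones and shPCBP1 lines did not overlap in 6 rows, all lower (Pfkl, Pfkfb4, Tpi1, Pgk1, Eno2 and Pdk2), against 17.2% of all genes, 13.2% lower. The median log2 fold change of all genes was itself -0.16 in this comparison, that of the members was -0.36, and 29 of 33 rows lay below 0. In LIFR KO clones 1 to 3, 21, 27 and 27 rows lay below the shPCBP1 mean, against 52.8, 64.2 and 62.0% of all genes. The median log2 difference in clone 1 was -0.16 over the members and -0.01 over all genes. After median-ratio rescaling of the libraries, which brought the median of all genes to 0.00, that of the members was -0.20 and no member passed. Of all genes, 115 were higher and 701 lower past the threshold as deposited, and 190 and 288 after rescaling. The FAM3C KO and LIFR KO comparisons share their 4 shPCBP1 lines and are therefore not independent. Summed mesenchymal markers were at 1283 to 1936 CPM and summed epithelial markers at 1715 to 2731 CPM in the LIFR KO clones, and their part was not tested.

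Pfkl, the liver-type phosphofructokinase, had 55.7, 30.7 and 30.3 CPM in the LIFR KO clones, in the order 1 to 3, each below the shPCBP1 values of 67.9, 59.5, 60.4 and 72 CPM (-0.79, SE 0.199, adjusted p = 0.0562 from limma). Tpi1 was at 277, 197 and 223 CPM against 309, 305, 310.3 and 358 CPM (-0.48, SE 0.123, adjusted p = 0.0594 from limma). Pfkfb4 was at 6.01, 4.12 and 4.97 CPM against 7.49, 7.29, 6.99 and 9.59 CPM (-0.63, SE 0.166, adjusted p = 0.061 from limma). In these 3 the exact permutation p was 0.0286 (two-sided), the smallest possible, and clone 1 lay nearest to the shPCBP1 lines. Vegfa was at 128, 86.4 and 89.1 CPM, with clone 1 inside the range of the shPCBP1 lines (-0.63, SE 0.165, adjusted p = 0.061 from limma, exact permutation p = 0.0857). Eno2 was at 6.22, 0.541 and 3.6 CPM against 7.42, 7.12, 7.07 and 9.69 CPM, a log2 difference of -1.67 that did not pass (adjusted p = 0.0962 from limma), and Pdk2 at 3.22, 2.75 and 3.77 CPM against 4.37, 4.73, 4.93 and 4.4 CPM (-0.50, adjusted p = 0.0809). The abundant enzymes showed how far the clones differed from each other. Aldoa was at 896, 489 and 476 CPM and Pkm at 2016, 1176 and 1009 CPM in clones 1 to 3, so that clone 1 lay within the shPCBP1 range and clones 2 and 3 far below it.

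The calls depended on which libraries were fitted. With clone 1 as the only LIFR KO library, the log2 differences from the shPCBP1 lines were smaller, at -0.22 for Pfkl, -0.37 for Pfkfb4, -0.21 for Tpi1 and -0.27 for Vegfa. Without clone 1, 20 rows passed, 17 lower and 3 higher (Hif1a, Bnip3l and Ero1a), where 57.4% of all genes passed (5049 lower and 2185 higher of 12612), so that the members' count lay near the background. Leaving out clone 2 left no member past the threshold, where 0.356% of all genes passed. The same held without any 1 shPCBP1 line, where only 0.0397 to 0.380% of all genes passed. Without clone 3 the 2 that passed were Pfkfb3 and Pdk2, where 5.72% of all genes passed. Across 12603 genes, which are not independent, the log2 difference of a library from the mean of the shPCBP1 lines had a Spearman correlation with the GC content of the gene's longest transcript of -0.76 in clone 2, -0.75 in clone 3 and -0.71 in the double KO, against 0.08 in clone 1 and -0.29 to 0.24 in the shPCBP1 and FAM3C KO libraries. The 33 member rows had a median GC content of 52.5% against 50.1% over all tested genes. Across them the same correlation was 0.37, -0.70 and -0.59 in clones 1 to 3 and -0.60 in the double KO. The 4 members under 45% GC (Hif1a, Ero1a, Bnip3 and Bnip3l) had median differences of -0.35, 0.26 and 0.59 in clones 1 to 3, and the 9 rows from 55% GC 0.02, -0.76 and -0.78. After correction for GC content the log2 fold changes were -0.28 for Pfkl (adjusted p = 0.22 from limma), -0.21 for Pfkfb4 (adjusted p = 0.427), -0.11 for Tpi1 (adjusted p = 0.485) and -0.39 for Vegfa (adjusted p = 0.17). No shPCBP1 library had this shift, so in clones 2 and 3 the loss of LIFR and the shift cannot be told apart.

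**Figure D4:**
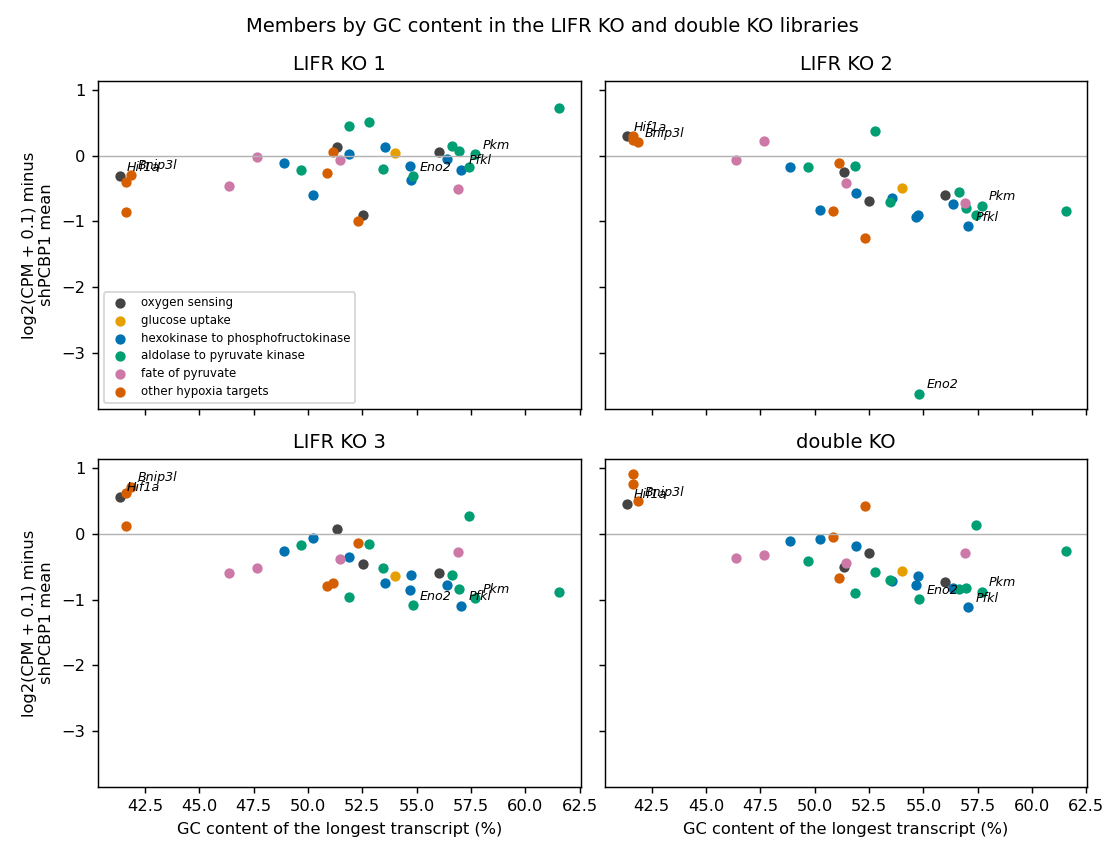
Each point is one of the 33 member rows, placed by the GC content of its longest transcript in percent (horizontal) and by log2(CPM + 0.1) minus the mean of the shPCBP1 lines (vertical), in the LIFR KO and double KO libraries. The points fall from left to right in LIFR KO clones 2 and 3 and in the double KO (Spearman -0.70, -0.59 and -0.60) and not in LIFR KO clone 1 (0.37).

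Among the further pathway genes 1 passed in LIFR KO, P4ha2, a subunit of the collagen prolyl 4-hydroxylase. It was 1 of 18 other hypoxia-responsive genes tested, where 6.47% of all genes passed. None passed of 6 regulators of HIF, 13 other glycolysis genes, 9 genes for pyruvate entry and 7 pentose phosphate genes. P4ha2 was at 8.98, 10.9, 8.61 and 12.6 CPM in the shPCBP1 lines and 2.9, 3.54 and 3.95 CPM in the clones, without overlap (-1.54, SE 0.173, adjusted p = 0.0113 from limma). Clone 1 had the lowest of these values.

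**Figure D5:**
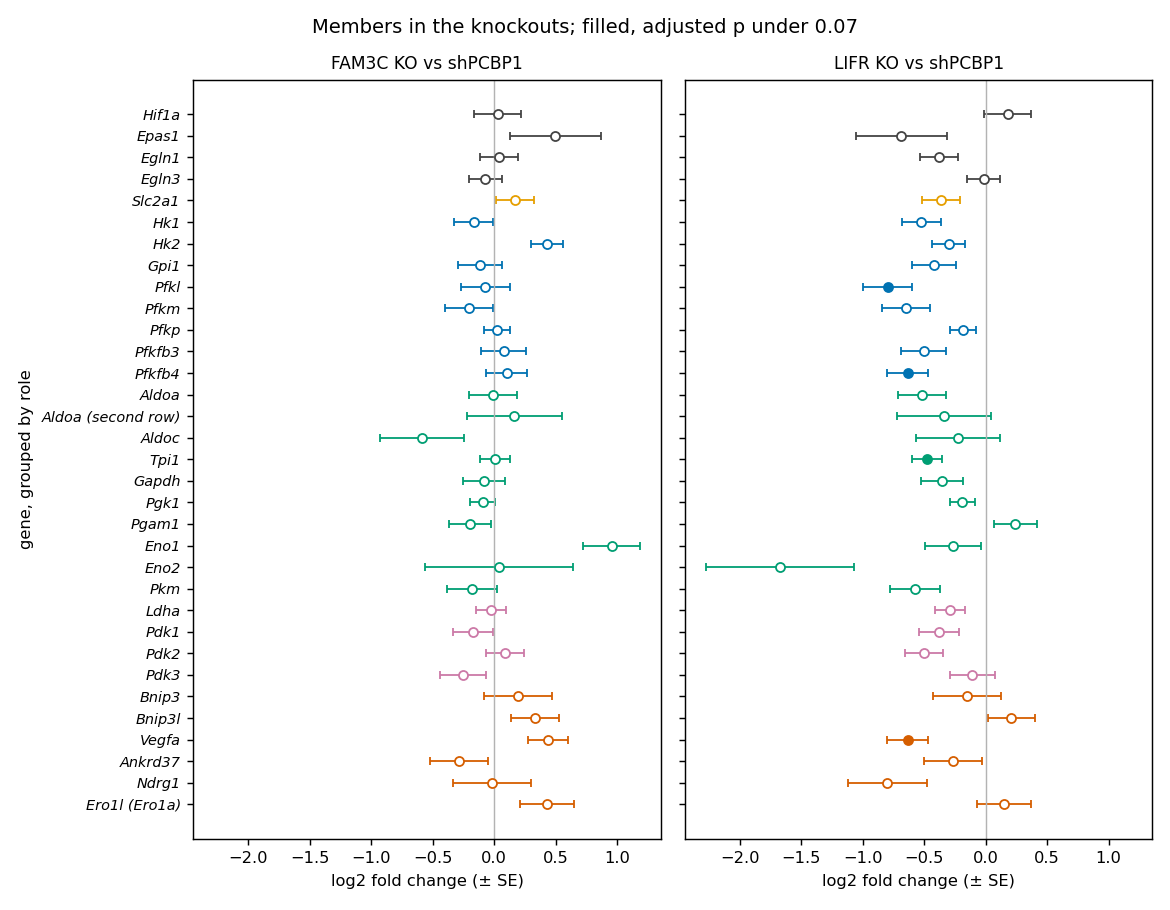
Log2 fold change with its standard error (horizontal axes) for each of the 33 member rows, grouped by role, in FAM3C KO (left) and LIFR KO (right) against the same 4 shPCBP1 lines. No symbol is filled (adjusted p under 0.07) on the left and 4 are on the right, where most rows lie below 0.

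The difference between the knockouts was tested directly, FAM3C KO against LIFR KO in the same fit. Of the 33 rows 6 passed, all higher in FAM3C KO: Hk2, Pfkfb4, Tpi1, Eno1, Pdk2 and Vegfa, where 8.28% of all genes passed (6.83% higher). At an unadjusted p under 0.05 there were 15 rows, against 29.3% of all genes. In 10 rows the clones did not overlap, all higher in FAM3C KO, against 22.8% of all genes, 16.1% higher. The median log2 difference was 0.39 over the members and 0.14 over all genes. Rescaling moved the calls over all genes from 862 higher and 183 lower to 494 and 324. Vegfa had the smallest adjusted p, with every FAM3C KO clone (194, 200.5 and 235 CPM) above every LIFR KO clone (128, 86.4 and 89.1 CPM) and a log2 difference of 1.07 (SE 0.177, adjusted p = 0.0314 from limma). Eno1 differed by 1.22 (SE 0.245, adjusted p = 0.0387 from limma) and Hk2 by 0.73 (SE 0.14, adjusted p = 0.0366). Pfkfb4 was at 8.1, 8.4 and 8.57 CPM, Tpi1 at 319, 344 and 303 CPM and Pdk2 at 4.65, 5.04 and 5.03 CPM in the FAM3C KO clones, above all LIFR KO clones. They differed by 0.74, 0.49 and 0.59 (adjusted p = 0.046, 0.06 and 0.0634 from limma). With 3 clones on each side an exact permutation test could not go below p = 0.1, which each of the 6 reached.

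After correction for GC content, Hk2 (0.49, adjusted p = 0.0656 from limma) and Vegfa (0.88, adjusted p = 0.0656) passed and the other 4 did not, where 0.540% of all genes passed. Leaving out any 1 FAM3C KO clone left no member past the threshold, where only 0.00793 to 0.515% of all genes passed. In the same comparison 1 member (Eno1) passed without LIFR KO clone 2 (0.799% of all genes), and 20 passed without LIFR KO clone 1 (52.9% of all genes). When LIFR KO was represented by clone 1 alone, the clone without the GC shift, Hk2, Eno1 and Vegfa were again higher in FAM3C KO, with log2 differences of 0.41, 1.12 and 0.71 (adjusted p = 0.0558, 0.0103 and 0.0627 from limma), the lone clone being assumed to vary like the other groups. In that setting Pfkfb3, Bnip3, Bnip3l and Ero1a also passed as higher, and Pgam1 as lower, so that 8 of 33 rows passed against 9.45% of all genes. Among the further pathway genes, Siah2 (0.70), Ddit4 (0.91), Pgls (0.98), P4ha2 (1.08) and Eno1b (1.25) were higher in FAM3C KO than in LIFR KO, with adjusted p from 0.0323 to 0.0595 from limma. They were 1 of 6 regulators of HIF tested, 2 of 18 other hypoxia-responsive genes and 1 of 13 other glycolysis genes. The pentose phosphate branch gave 1 of 7 and pyruvate entry 0 of 9, against 8.28% of all genes. In LIFR KO clones 1 to 3 Ddit4 was at 54.9, 31.2 and 28.8 CPM and Pgls at 35.8, 16.8 and 14.7 CPM, with clone 1 highest. P4ha2 was lowest in clone 1. Reads of Eno1b may be shared with Eno1.

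The double KO was a single library without a replicate and was described only. Of the 33 rows, 22 lay below every shPCBP1 line and 5 above, as against 14, 22 and 24 below and 5, 3 and 3 above in LIFR KO clones 1 to 3, and 8, 7 and 11 below and 8 above each in FAM3C KO clones 1 to 3. Of all 12621 genes, 53.8% lay below and 26.0% above in the double KO, 28.0, 53.5 and 52.0% below and 21.8, 26.0 and 27.9% above in LIFR KO clones 1 to 3, and 25.9 to 34.3% below and 24.5 to 24.8% above in the FAM3C KO clones. The rows above were Hif1a at 188 CPM, Bnip3 at 5.28 CPM, Bnip3l at 30.8 CPM, Ndrg1 at 56.5 CPM and Ero1a at 42.3 CPM. Of these, 4 are the members under 45% GC, and the library carried the GC shift and a mitochondrial share of 8.58%. Their part in these levels was not tested. Eno1, at 271 CPM, and Hk2, at 88.3 CPM, did not reach the FAM3C KO clones, while the share of Hk2 in the hexokinase level per kb, 39.6%, was just above theirs. Both hexokinases lay below the shPCBP1 mean in the double KO, Hk1 by -0.83 and Hk2 by -0.19 on the log2 scale. Hk1 is the richer in GC, at 56.4% against 51.9%. The Hk2 share was 30.6, 31.8 and 36.0% in LIFR KO clones 1 to 3. The part of the GC shift in these shares was not tested. The summed CPM of the members was 4011 in the double KO, close to 4073 and 4034 in LIFR KO clones 2 and 3 and below the 5663 to 6753 of the shPCBP1 lines, the 5869 to 6286 of the FAM3C KO clones and the 6033 of LIFR KO clone 1.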

How the data were processed

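RNA-Seq libraries of NMuMG-derived lines had been made from ribosome-depleted total RNA with a strand-specific kit. The authors aligned reads with Bowtie2 and quantified genes in Partek Flow on GRCm38 (mm10), and deposited normalized CPM for each sample in 2 separately normalized tables, with a small value in place of 0. How strand and reads shared between genes were handled is not given in the sources used here. In the knockdown table the authors also deposited a mean of each group and a ratio (fold change) of means, which were not used.

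The fits used log2(CPM + 0.1), on which changes of low genes come out too small. Genes were kept from a mean of 0.5 CPM upward. The fits were made by limma 3.58.1 (R 4.3.3), its prior variance following the mean level. The shPCBP1, FAM3C KO and LIFR KO groups were fitted together and the double KO was left out. The threshold was a two-sided Benjamini-Hochberg adjusted p under 0.07 over all genes tested, which is that of the study. The members, roles and further gene lists were chosen with earlier results of these data known, so no p-value was adjusted over the list alone. All members were named by the rule that those past the threshold are given with every sample and the others by counts and ranges, and at most 6 further pathway genes past the threshold by size of change. One of the latter is not reported here. Exact permutation tests over samples were run on log2 values of single members. Replicates were samples of one label with nothing said of separate cultures, or separate clones, so p-values measure the spread between these.

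Read counts could not be recovered from the CPM and no count test was run. The totals implied by the lowest values of the knockout libraries give the precision only roughly. Clone and replicate numbers shared by groups did not pair the samples (correlation of deviations between -0.18 and 0.15). GC content, lengths and gene models were taken from GENCODE M21 (GRCm38), and promoter windows from RefSeq (GRCm38.p6), the window nearest to the GENCODE start being used where a gene had several. Gene starts matched those of GENCODE for 14269 of 14795 genes in the knockdown table and 302 of 13870 in the knockout table, so no coordinates were taken from the tables. The GC correction was a loess curve of span 0.3 per library. The other settings were rescaling or quantile normalization, a pseudocount of 1 CPM, no filter or a mean of 1 CPM, an adjusted p under 0.05, a fold of at least 1.5, the groups fitted alone, the double KO added, LIFR KO clone 1 alone, the clone number as a block and leaving out each sample. On simulated data with 200 genes changed by 1 on the log2 scale, 116 were found in the FAM3C KO design on 12621 genes, with 8 false calls, and 184 in the knockdown design on 11384 genes, with 9. The simulated noise was independent between genes and samples, without a GC shift shared across genes. These counts therefore do not give the rate of false calls in the real libraries. Plots were made in Python 3.11.15 (matplotlib 3.10.9).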

Additional observations from a re-analysis of the deposited data

Results flagged for a closer look

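Among the 4 shPCBP1 lines, CT clone 3 stood far above the other lines by Dixon's test in 3 of 33 member rows: Tpi1 at 358 CPM, Pgam1 at 364 CPM and Eno2 at 9.69 CPM. Chance marks about 1 group in 20 by this test, and of all 12621 genes it marked 6.42%, with CT clone 3 the highest in 2.43%. Members were high in that clone in general, with 2 of 33 below the mean of the shPCBP1 lines and a median log2 difference of 0.19, against 0.05 over all genes. The differences between FAM3C KO and LIFR KO that passed the threshold were 0.73 for Hk2, 0.74 for Pfkfb4, 0.49 for Tpi1, 1.22 for Eno1, 0.59 for Pdk2 and 1.07 for Vegfa, all on the log2 scale and all in the direction of higher levels in FAM3C KO. In the double KO, which entered no comparison, the levels above every shPCBP1 line were Hif1a at 188 CPM, Bnip3 at 5.28 CPM, Bnip3l at 30.8 CPM, Ndrg1 at 56.5 CPM and Ero1a at 42.3 CPM. This library has no replicate and shared the GC shift of LIFR KO clones 2 and 3.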

How the results depend on the processing

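No member past the threshold changed direction under the settings tried. The shares of all genes that passed are given in parentheses. In the PCBP1 knockdown the 29 members past the threshold (80.1%) became 16 with a fold of at least 1.5 required (31.1%). In FAM3C KO the count of 0 (0.309%) became 3 with the groups fitted alone (8.29%) and 1 with the GC correction (2.13%). It stayed 0 without any 1 sample of either group (0.0238 to 0.214%). In LIFR KO the count of 4 (6.47%) became 0 with rescaling (3.79%) and with an adjusted p under 0.05 (2.84%). It was also 0 with the groups fitted alone (0.278%) and with the GC correction (0.309%). Leaving out 1 sample gave 0 to 20, with 20 without LIFR KO clone 1 (57.4%), 2 without clone 3 (5.72%) and 0 without clone 2 (0.356%). The count was also 0 without any 1 of the 4 shPCBP1 lines (0.0397 to 0.380%). In FAM3C KO against LIFR KO the count of 6 (8.28%) became 0 with the groups fitted alone (0%) and 2 with the GC correction (0.540%). Leaving out 1 sample gave 0 to 20, with 0 without any 1 FAM3C KO clone (0.00793 to 0.515%). It gave 20 without LIFR KO clone 1 (52.9%) and 1 without clone 2 (0.799%).

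Clone numbers share only a number across groups. With the number as a replicate block, 29 members passed in the knockdown, 0 in FAM3C KO, 0 in LIFR KO and 0 in FAM3C KO against LIFR KO, and the block with the GC correction gave 0 in LIFR KO and 0 in FAM3C KO against LIFR KO. Over all genes, the 39 calls of FAM3C KO became 15 with the block, 1048 with the groups fitted alone, 268 with the GC correction and 21 with a filter at 1 CPM. The 816 of LIFR KO became 478 with rescaling, 359 at an adjusted p under 0.05, 10 with the block, 35 fitted alone and 39 with the GC correction. The 1045 of FAM3C KO against LIFR KO became 587 at an adjusted p under 0.05, 0 with the block, 0 fitted alone and 68 with the GC correction. The block with the GC correction gave 15, 3 and 0, and LIFR KO clone 1 alone gave 281 in LIFR KO. The cause of these changes was not tested. The depth of the knockdown table is unknown, so no detection limit was given for its low members.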
